A study of Arabidopsis thaliana with 6 samples.

Results

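The plastid-encoded photosynthesis genes are the genes of the chloroplast genome for photosystem I, photosystem II, the cytochrome b6f complex, the plastid ATP synthase, the NADH dehydrogenase-like (NDH) complex and the large subunit of Rubisco. Probe sets were taken that name a single gene at a plastid locus (ArthCp) with a symbol starting with psa, psb, pet, atp or ndh, or equal to rbcL, ycf3 or ycf4. This gave 45 genes, each with 1 probe set, of 69 plastid genes and 13286 genes in all with a probe set of their own. The tests ran over 22746 probe sets. RNA was measured on Affymetrix arrays in 3 samples of sdg2 mutant seedlings and 3 samples of wild type seedlings, all of Arabidopsis thaliana in the Columbia (Col-0) accession. Every sample was whole seedlings, 10 days old, raised on plates with diluted Murashige and Skoog medium at 22 °C under 24 h of light per day. SDG2 encodes a SET domain histone methyltransferase that trimethylates lysine 4 of histone H3. The sdg2 allele is not given in the labels, the titles call the samples biological replicates, and nothing says whether they came from separate plates, so p-values cover the spread among these samples alone, part of which may be technical.

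Chloroplast DNA is packed without histones, so the 45 genes lie outside the chromatin that SDG2 modifies. Most plastid photosynthesis genes are transcribed by the bacterial-type plastid-encoded RNA polymerase, which depends on nuclear sigma factors, and a second, phage-type polymerase is encoded in the nucleus. Neighbouring genes are usually transcribed together as long precursors, which nuclear-encoded RNA-binding proteins such as pentatricopeptide repeat proteins then cut, splice, edit and protect. Each complex also contains subunits made from nuclear genes, so its assembly draws on both genomes.

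The values are log2 signals normalised by the authors with GCRMA, in which probe sets without signal pile up at a lower mode, between 2.16 and 2.19 on the 6 arrays. Pearson correlations over the whole table were 0.9970 to 0.9976 within a genotype and 0.9700 to 0.9709 across genotypes. The gene SDG2 has no probe set named in the tables used and was not analysed here, so the labels were not checked against it. Of the markers for the labelled tissue, 3 of 20 shoot and chloroplast markers were measured, with group means of 13.50 to 14.28, and 3 of 10 root markers, with group means of 5.17 to 13.46. None of 7 seed markers matched, by symbol, a probe set that names a single gene in the annotation used. In whole seedlings, fewer cells or plastids of a kind and less RNA in each cannot be told apart.

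The comparison of sdg2 with wild type showed a few large falls among plastid photosynthesis genes and many small or unresolved differences. The falls beyond 2-fold were those of atpA, psbI, psbK and petG, and the rises were at most 0.67 on the log2 scale. In limma 12 of the 45 genes passed an adjusted p of 0.05, 5 higher and 7 lower in sdg2. That is 26.7% of the genes, where 36.6% of all probe sets were called. The higher genes were 11.1% of the 45, against 19.0% of all probe sets, and the lower genes were 15.6%, against 17.6%. At least 2-fold lower were 4 of the 45 genes (8.89%), against 5.51% of all probe sets, and none was 2-fold higher. Among the 4 is petG, which lay near the lower mode in sdg2, so the size of its fall is not resolved. In either direction, 10.6% of all probe sets passed at 2-fold. The median change over the 45 genes was 0.01, against -0.01 over all probe sets. The counts are tied to the scaling, with 7 higher and 6 lower under quantile normalization, 3 and 8 under median centring, and 3 and 11 with arrays centred on the median deviation of the plastid probe sets. Centring on the median level of the plastid probe sets added 0.42 to every change. It gave 31 higher (68.9%) and 5 lower genes, where 72.8% of all probe sets were called higher. Among probe sets with a signal of at least 5 on at least 3 arrays, 15 of 41 genes passed (36.6%), against 63.4% of 13262 probe sets. Without wild type replicate 2 the count of higher genes was 9, and without sdg2 replicate 2 it was 3.

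**Figure D1:**
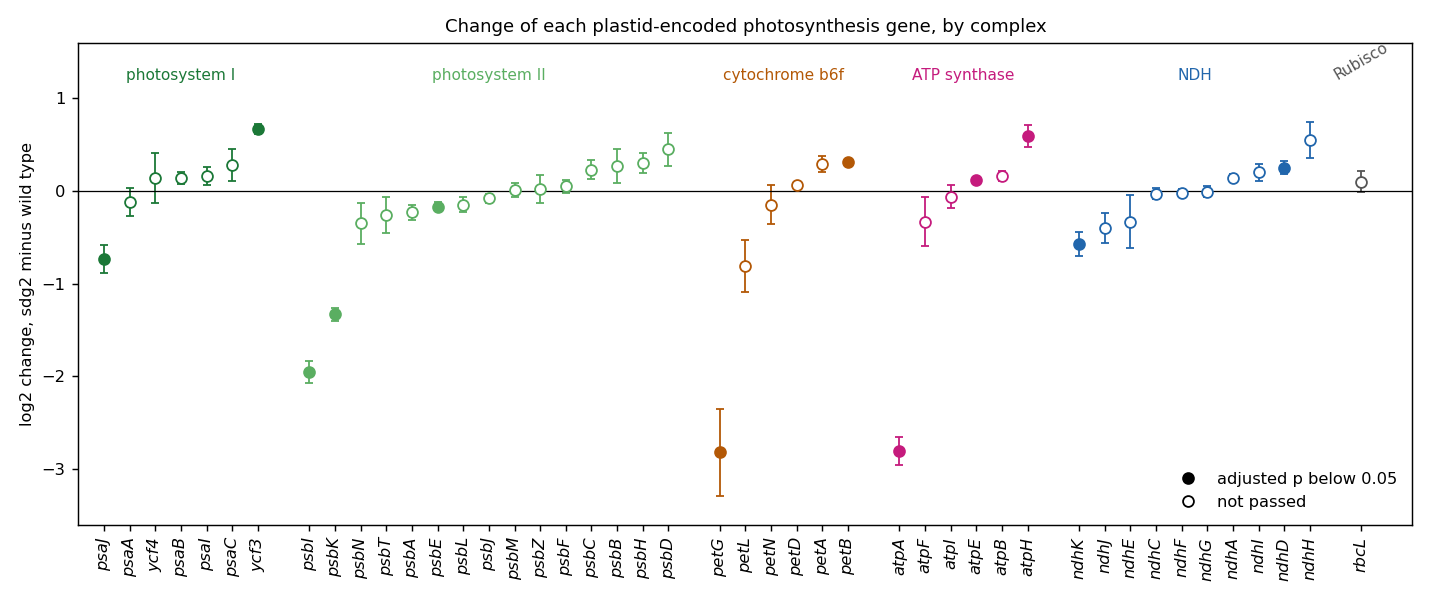
The vertical axis is the log2 change, sdg2 minus wild type, of each of the 45 genes with its standard error from limma, grouped by complex and sorted within it. Filled points passed an adjusted p of 0.05, and petG, atpA, psbI and psbK lie below -1 while no gene lies above 0.67.

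Of the 7 photosystem I genes, ycf3 rose, psaJ fell and 5 did not pass. ycf3 encodes an assembly factor of photosystem I. Its log2 signal was 12.16, 12.26 and 12.14 in sdg2, against 11.58, 11.48 and 11.49 in wild type. The arrays of the genotypes did not overlap, and the change was 0.67 ± 0.05 (SE, n = 3 per group; adjusted p = 0.000365). psaJ encodes a small membrane subunit at the edge of the photosystem I core. Its signal was 10.31, 10.14 and 9.96 in sdg2, against 10.96, 11.03 and 10.61 in wild type. Every sdg2 array lay below every wild type array, and psaJ fell by 0.73 ± 0.15 (adjusted p = 0.0140). Its call was lost without wild type replicate 1 (adjusted p = 0.0525, in a range of 0.000336 to 0.0525 over 14 alternatives).

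The core subunits of photosystem I did not pass. psaA and psaB encode the reaction centre pair that binds the primary donor P700, and their changes were -0.12 ± 0.15 and 0.14 ± 0.06. psaC, which carries the terminal iron-sulfur clusters, had a change of 0.28 ± 0.17 at a low signal, with means of 5.49 in sdg2 and 5.21 in wild type. psaI, a small membrane subunit, had a change of 0.16 ± 0.10. ycf4, a further assembly factor, had a change of 0.14 with a 95% confidence interval from -0.54 to 0.81, so a change of 0.5 in either direction lies inside it. psaB sat near the top of the scale, with means of 14.17 in sdg2 and 14.03 in wild type, where the highest value on an array was 14.92 to 15.03.

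Photosystem II is represented by 15 genes, of which psbI, psbK and psbE fell, none rose and 12 did not pass. psbI and psbK encode small membrane subunits and lie next to each other on the plastid genome. psbI had a signal of 9.94, 10.10 and 9.69 in sdg2, against 11.84, 11.97 and 11.76 in wild type. This is a 3.85-fold lower signal in sdg2, a log2 change of -1.95 ± 0.12 (adjusted p = 0.000241). psbK had 10.61, 10.48 and 10.51 in sdg2, against 11.76, 11.97 and 11.86 in wild type. It was 2.51-fold lower in sdg2, a log2 change of -1.33 ± 0.07 (adjusted p = 0.000135). The gap between genotypes was 1.14 for psbK and 1.65 for psbI, wider than the spread of either genotype.

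psbE encodes the alpha subunit of cytochrome b559, a haem protein of the photosystem II reaction centre. Its signal was 11.72, 11.55 and 11.63 in sdg2, against 11.78, 11.83 and 11.79 in wild type. The groups did not overlap, but the fall was 0.17 ± 0.05 (adjusted p = 0.0493), the smallest margin of the 12 calls. It kept its call in 4 of 14 alternatives (adjusted p of 0.0211 to 0.139) and lost it when any array other than sdg2 replicate 1 was left out (adjusted p of 0.0824 to 0.139). When arrays were centred on the plastid probe sets' median level the value of psbE was 0.25.

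The large subunits of photosystem II did not pass. psbA encodes D1, the reaction centre protein that turns over rapidly in light, and its change was -0.23 with a 95% confidence interval from -0.43 to -0.03 (adjusted p = 0.0806). psbD, for the partner protein D2, had a change of 0.45 ± 0.18, with 9.19, 8.96 and 8.80 in sdg2, against 8.49, 8.85 and 8.25 in wild type. The lowest sdg2 array of psbD lay below the highest wild type array. psbB and psbC, for the core antenna proteins CP47 and CP43, had changes of 0.27 ± 0.18 and 0.23 ± 0.10. The coding regions of psbD and psbC overlap, and whether their probe sets read shared bases was not tested.

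The genes of the small subunits psbL and psbJ had changes of -0.15 ± 0.08 and -0.08 ± 0.05, and psbM, psbZ and psbF ones of 0.01 ± 0.08, 0.02 ± 0.15 and 0.05 ± 0.07. The 95% confidence intervals of these 5 lay within -0.36 and 0.41. psbM sat near the top of the scale, with means of 14.02 in sdg2 and 14.01 in wild type. psbF encodes the beta subunit of cytochrome b559, the partner of psbE. psbH, a phosphoprotein subunit, had a change of 0.30 ± 0.11 (adjusted p = 0.0957), and psbT had -0.26 ± 0.19. psbN, which lies on the opposite strand between psbT and psbH and is known for photosystem II assembly, had a change of -0.35 ± 0.22.

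**Figure D2:**
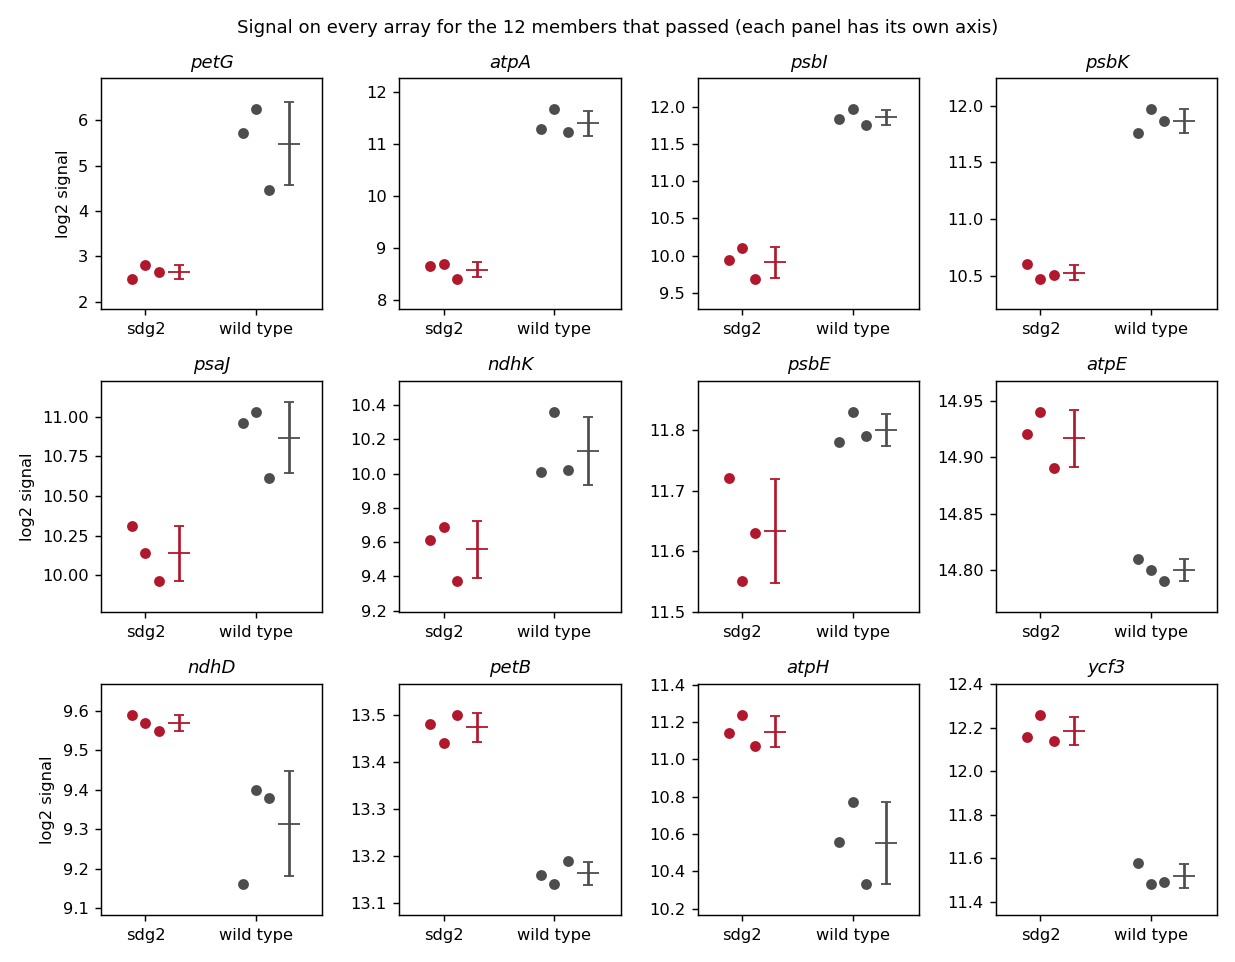
Each panel gives the log2 signal of 1 of the 12 genes that passed, with the 3 sdg2 arrays in red on the left and the 3 wild type arrays in grey on the right, and bars for the mean ± SD. Each panel has its own vertical axis, which does not start at 0, and the groups do not overlap in any of the 12, from petG with a change of -2.82 to ycf3 with 0.67.

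In the cytochrome b6f complex petG fell, petB rose and 4 of 6 genes did not pass. petG encodes a small subunit that is needed for assembly of the complex. Its signal was 2.51, 2.81 and 2.66 in sdg2, against 5.73, 6.25 and 4.47 in wild type. The sdg2 arrays lay close to the lower mode of unexpressed probe sets, so no fold is given for the log2 change of -2.82 ± 0.47 (adjusted p = 0.00713). The wild type spread of petG, an SD of 0.91, was the largest of the 45 genes in wild type. petB encodes cytochrome b6. Its signal was 13.48, 13.44 and 13.50 in sdg2, against 13.16, 13.14 and 13.19 in wild type. The arrays within each genotype lay within 0.06 of each other, and petB rose by 0.31 ± 0.03 (adjusted p = 0.000865). Its call was lost with arrays centred on the median deviation of the plastid probe sets (adjusted p = 0.109, in a range of 0.000224 to 0.109 over 14 alternatives).

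petL, for another small subunit, had a signal of 7.38, 7.35 and 6.70 in sdg2, against 7.70, 8.41 and 7.74 in wild type. The groups did not overlap, but the change of -0.81 ± 0.28 did not pass (adjusted p = 0.0855), with a 95% confidence interval from -1.53 to -0.08. It was the largest change in size among the genes that did not pass. petA, which encodes cytochrome f, had a change of 0.29 ± 0.09 (adjusted p = 0.0583), also with no overlap. petN, a small subunit, had a change of -0.15 ± 0.21. petD, which encodes subunit IV, had a change of 0.06 ± 0.04 and means of 2.06 in sdg2 and 2.00 in wild type, within the lower mode, so its probe set gives no level of the transcript here.

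In the plastid ATP synthase atpA fell, atpH and atpE rose and 3 of 6 genes did not pass. atpA encodes the alpha subunit of the catalytic CF1 head. Its signal was 8.67, 8.69 and 8.42 in sdg2, against 11.29, 11.67 and 11.22 in wild type. The highest sdg2 array lay 2.53 below the lowest wild type array. The signal was 6.99-fold lower in sdg2, a log2 change of -2.81 ± 0.15 (adjusted p = 0.000149).

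Of the other CF1 genes measured, atpE rose and atpB did not pass. atpB, for the beta subunit that alternates with alpha in the head, had 14.60, 14.77 and 14.74 in sdg2, against 14.55, 14.54 and 14.52 in wild type. Its change of 0.16 had a 95% confidence interval from 0.03 to 0.29 and did not pass (adjusted p = 0.0611). atpE, for the epsilon subunit, had 14.92, 14.94 and 14.89 in sdg2, against 14.81, 14.80 and 14.79 in wild type. It rose by 0.12 ± 0.02 (adjusted p = 0.0144), but lost its call in 7 of 14 alternatives (adjusted p of 0.000781 to 0.879), among them without wild type replicate 2 or sdg2 replicate 1. Both probe sets lay at the top of the array scale, where a fall in RNA may not be read, and the coding regions of atpB and atpE overlap.

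The membrane part of the ATP synthase, CFo, is encoded by atpF, atpH and atpI in the plastid. atpH encodes the c subunit of the rotating ring. Its signal was 11.14, 11.24 and 11.07 in sdg2, against 10.56, 10.77 and 10.33 in wild type. Every sdg2 array lay above every wild type array, and atpH rose by 0.59 ± 0.12 (adjusted p = 0.0151). The call ended at an adjusted p of 0.0511 without wild type replicate 1 and of 0.0551 without sdg2 replicate 2, where the 14 alternatives ranged from 4.97e-05 to 0.0551. atpF, for the stator subunit b, and atpI, for subunit a, did not pass, at -0.33 ± 0.26 and -0.06 ± 0.12.

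The NDH complex drives cyclic electron flow around photosystem I. Of its 10 genes measured, ndhK fell, ndhD rose and 8 did not pass. ndhK encodes a subunit of the peripheral arm. Its signal was 9.61, 9.69 and 9.37 in sdg2, against 10.01, 10.36 and 10.02 in wild type. The groups did not overlap, and ndhK fell by 0.57 ± 0.13 (adjusted p = 0.0234). Leaving out sdg2 replicate 1 (adjusted p = 0.0597) or replicate 3 (adjusted p = 0.0588) ended the call, in a range of 0.000878 to 0.216 over 14 alternatives. With arrays centred on the plastid probe sets' median level ndhK was at -0.15 (adjusted p = 0.216).

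ndhD encodes a subunit of the membrane arm. It had 9.59, 9.57 and 9.55 in sdg2, against 9.16, 9.40 and 9.38 in wild type. The rise was 0.25 ± 0.07 (adjusted p = 0.0422), and the call was lost in 7 of 14 alternatives (adjusted p of 0.000585 to 0.247), among them without wild type replicate 3 or any sdg2 array.

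Of the other peripheral arm genes, ndhH had a change of 0.55 ± 0.19 with no overlap (adjusted p = 0.0867), ndhI one of 0.20 ± 0.09 and ndhJ one of -0.40 ± 0.16. ndhI sat near the top of the scale, with means of 14.56 in sdg2 and 14.35 in wild type. The ndhH signal was 6.82, 6.71 and 6.85 in sdg2, against 5.91, 6.64 and 6.18 in wild type, so most of the spread lay in wild type. Of the membrane arm genes, ndhA had a change of 0.14 ± 0.04, ndhC one of -0.03 ± 0.06 and ndhE one of -0.33 ± 0.29. ndhG, at -0.01 ± 0.06, stayed below 5 on every array. ndhF, at -0.02 ± 0.04, had means of 2.49 in sdg2 and 2.50 in wild type, near the lower mode. The probe set that names both copies of ndhB, which lies in the inverted repeat, had means of 2.01 in sdg2 and 2.04 in wild type and was not counted among the 45.

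Rubisco is represented by rbcL, which encodes the large, catalytic subunit. Its signal was 11.82, 11.78 and 11.71 in sdg2, against 11.75, 11.83 and 11.44 in wild type. The groups overlapped, and the change of 0.10 had a 95% confidence interval from -0.19 to 0.38 (adjusted p = 0.572). A fall in signal of the size seen for psbK lies outside that interval.

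Falls in signal were found in some genes of a transcription unit and not in others. The labelling kit starts from poly(A), which plastid mRNAs mostly lack. Whether differences in signal between neighbours follow their transcript levels was not tested. psbK and psbI, known to be transcribed together, both fell. In gene order the next measured plastid gene after psbI is atpA, which belongs to another unit. atpA is the last gene of the unit that runs from rps2 through atpI, atpH and atpF. Along it rps2, a ribosomal protein gene, rose by 0.48 ± 0.10 (a call lost without wild type replicate 3 or sdg2 replicate 1, adjusted p of 3.74e-05 to 0.0542 over the alternatives), and atpI did not pass. Then atpH rose, atpF did not pass and atpA fell. Within each array, atpF minus atpA was -0.15, -0.32 and -0.51 in sdg2, against -2.49, -2.82 and -3.10 in wild type. The change therefore differed by 2.47 log2 units between these neighbours, far beyond the spread of either genotype. For atpH and atpF the difference of changes was 0.93, with values of 2.62, 2.88 and 3.17 in sdg2, against 1.76, 1.92 and 2.21 in wild type.

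**Figure D3:**
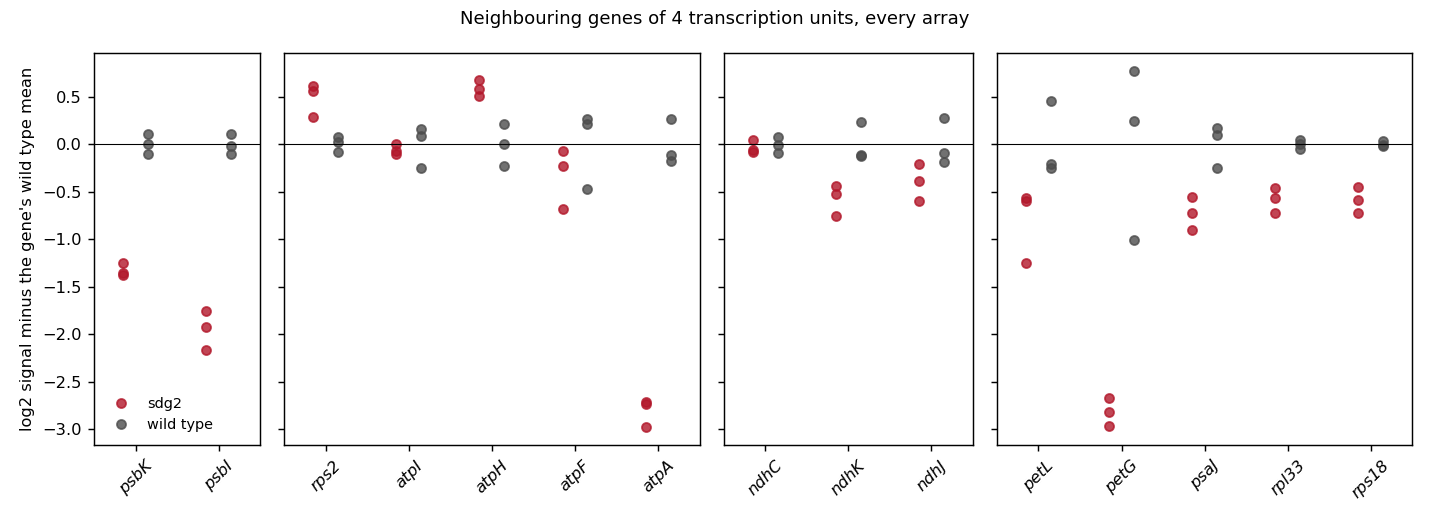
The vertical axis is the log2 signal of each array minus the wild type mean of the same gene, for neighbouring genes of 4 transcription units, with sdg2 arrays in red on the left of each gene and wild type arrays in grey on the right. In the unit that ends in atpA the fall is seen in atpA and not in atpI or atpH, and in the unit that starts with petL the lowest sdg2 arrays are those of petG.

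In the unit of petL, petG, psaJ, rpl33 and rps18 every gene had a negative change, and petG, psaJ and the ribosomal protein genes rpl33 and rps18 passed. rpl33 fell by 0.59 ± 0.07 and rps18 by 0.59 ± 0.07. Both calls ended with arrays centred on the plastid probe sets' median level (adjusted p = 0.142 for rpl33 and 0.117 for rps18). Within each array, petL minus petG was 4.86, 4.55 and 4.04 in sdg2, against 1.97, 2.17 and 3.26 in wild type, a difference of changes of 2.02 that is bounded by the background level of petG in sdg2. In the unit of ndhC, ndhK and ndhJ, ndhC minus ndhK was 2.77, 2.56 and 2.91 in sdg2, against 2.24, 1.98 and 2.40 in wild type, a difference of 0.54. For ndhK and ndhJ the difference was -0.17, against SDs of 0.13 in sdg2 and 0.07 in wild type. It stayed between -0.23 and -0.10 with any array left out, but the groups were not apart and met at -1.06.

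In all, 12 neighbouring pairs were compared, taken because their calls differed, so the differences describe the pairs and do not test them independently. The exact two-sided permutation test gave p = 0.1 for the pairs without overlap, the smallest that 3 against 3 arrays can give, or 0.15 after Benjamini-Hochberg adjustment over the 12. psbE and psbF differed in their changes by -0.21 and rps2 and atpI by 0.54, both without overlap. For atpI and atpH the difference was -0.65, also without overlap. In atpB and atpE, psbH and petB, and ndhD and psaC the differences of 0.05, -0.01 and -0.03 were within the spread, so a call in a single gene of these pairs does not set it apart from its neighbour. petB and petD differed by 0.25, but petD is at background.

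Within a genotype, many of these genes shifted together from array to array. Of the 45 genes, 41 had a signal of at least 5 on at least 3 arrays. Wild type replicate 2 was the highest wild type array in 31 of these 41, where it was so in 30.1% of 13262 probe sets with the same brightness. Wild type replicate 3 was the lowest in 24 of 41, against 32.9% of those probe sets. In sdg2, replicate 1 was the highest in 25 of 41 (32.1% of the probe sets) and replicate 3 the lowest in 27 of 41 (29.9%). The median deviation from the genotype mean was 0.07, 0.01 and -0.08 in the sdg2 arrays, against -0.02, 0.14 and -0.13 in the wild type arrays. Wild type replicate 2 was also the highest wild type array for most of the 24 other plastid genes. Examples are cemA and rpoA, while rps2 and ccsA went otherwise. High values on that array were therefore not particular to the photosynthesis genes. The part of the shared shift in the small changes was not tested.

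**Figure D4:**
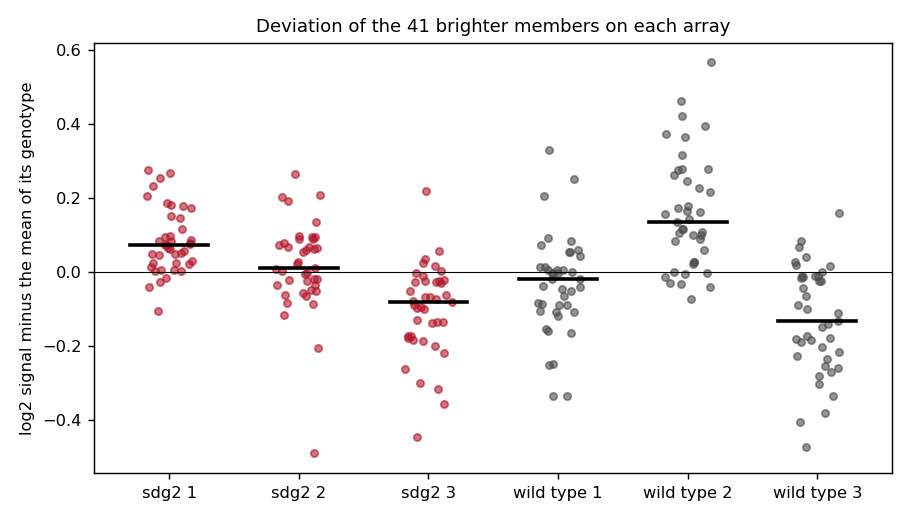
Each point is 1 of 41 genes on 1 array, plotted as its log2 signal minus the mean of the 3 arrays of that genotype, with the black line at the median. The sdg2 arrays in red are on the left and the wild type arrays in grey on the right, and wild type replicate 2 sits highest, with a median of 0.14.

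Over the 45 genes the median SD between replicates was 0.09 in sdg2 and 0.17 in wild type. The SD ranged from 0.02 to 0.42 in sdg2, with ndhE highest, and from 0.01 to 0.91 in wild type, with petG highest. Of the 33 genes that did not pass, 7 had an unadjusted p below 0.05 and 8 had no overlap, 5 higher and 3 lower. Among all 45 genes 20 had no overlap (44.4%), against 48.3% of all probe sets. For 18 of the 33 the 95% confidence interval of the change lay within 0.5 log2 units of 0 on either side, and for the other 15 the interval reached further. The 18 include petD, ndhF and ndhG, below 5 on every array, and psbM, psaB, atpB and ndhI, near the top of the scale. In these genes a narrow interval does not show a steady transcript.

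The 24 other plastid genes, for ribosomal proteins, RNA polymerase and further functions, had 10 rises, 2 falls and 12 that did not pass. The rises were 41.7% of them, against 19.0% of all probe sets, and the falls 8.33%, against 17.6%. In the fit of probe sets with a signal of at least 5 on at least 3 arrays, 33.5% were called higher and 29.9% lower. All but 2 of the 24 genes reached that brightness, but they were not counted in that fit. It called 63.4% of its probe sets, against 36.6% in the main fit. Its shares are therefore not a like-for-like background for the 41.7% and 8.33%. The median change of the 24 was 0.33, against 0.01 for the photosynthesis genes. The largest rises were those of rpoC2 by 0.76 ± 0.09, rpl36 by 0.65 ± 0.13 and rpoA by 0.59 ± 0.10, for subunits of the plastid RNA polymerase and of the ribosome. The falls were those of rpl33 and rps18. No test was made of the difference between the groups of genes.

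The nuclear lists, for genes that act with the plastid photosynthesis genes and for organelle RNA processing, matched few probe sets that name a single gene. The genes matched moved in both directions. For the ATP synthase, ATPC1, the main gene for the gamma subunit of CF1, rose by 0.52 ± 0.08, with means of 13.39 in sdg2 and 12.87 in wild type, while atpA fell. Its relative ATPC2, at -0.39 ± 0.15, did not pass. For photosystem I, 1 of 2 genes passed, with PSAN, on the lumen side, lower by a change of -0.59 ± 0.07, a call that ended under centring on the plastid probe sets' median level (adjusted p = 0.169). For photosystem II, PSBW and PSBY, small membrane subunits, fell by 0.31 ± 0.05 and 0.20 ± 0.05. PSBY kept its call in 5 of 14 alternatives (adjusted p of 0.0194 to 0.318), and its losses include those without wild type replicate 1 or 3 and without any sdg2 array. Under centring on the plastid probe sets' median level PSBW was at 0.11 and PSBY at 0.21.

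Of 3 antenna genes, the photosystem II antenna gene LHCB4.3 rose by 3.25 ± 0.21, LHCB4.2 fell by 0.77 ± 0.06 and 1 did not pass. RCA, for Rubisco activase, did not pass at 0.09 ± 0.05, and neither did the 1 gene measured of the electron carrier list. No sigma factor, phage-type polymerase or plastid transcription complex gene of the lists matched a probe set that names a single gene in the annotation used. Their levels were therefore not analysed, and the arrays may still read them.

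In a list of 6 nuclear NDH factor genes, PIFI and 5 CRR genes, 3 rose, where 19.0% of all probe sets were called higher. None of the 6 passed as lower. PIFI, which acts with the NDH complex, rose by 1.27 ± 0.10 and CRR42 by 0.78 ± 0.14. CRR22, an editing factor for plastid transcripts, had 3.09, 3.70 and 3.62 in sdg2, against 2.59, 2.61 and 2.58 in wild type. It passed (adjusted p = 0.0121), but the wild type arrays lay near the lower mode, so the size of its rise is not given. Of 20 genes of organelle RNA processing and assembly factors, which share 5 CRR genes with that list, 8 rose (40.0%, against 19.0% of all probe sets) and 12 did not pass. The 20 genes were not restricted to factors that act in the plastid. The rise was 1.34 ± 0.08 for OTP84 and 1.18 ± 0.14 for OTP81, and both lay below 5 on every wild type array. OTP84 is an editing factor whose known targets include psbZ, which had a change of 0.02 ± 0.15. The median of these 20 was 0.33, against -0.01 over all probe sets. Arrays of this kind do not read editing.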

How the data were processed

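RNA was measured on 1-colour Affymetrix arrays in 6 samples. Per the labels, total RNA was labelled with biotin using a 3' IVT kit. Such kits start from poly(A), which plastid mRNAs mostly lack, so signals reflect the transcripts captured this way. The authors deposited log2 values, made with GCRMA per the submitters' processing notes. Its version is not given in the sources used here. The precision is limited by the number of arrays.

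Of 22810 probe sets, 64 Affymetrix controls were left out. Genes were named from the platform annotation, with loci and symbols from the RefSeq gene table. The genotypes were compared in R 4.3.3 with limma 3.58.1 (lmFit, eBayes), as sdg2 minus wild type. P-values were adjusted by Benjamini-Hochberg over 22746 probe sets, with a threshold of 0.05. The fit was tested on simulated data. Neighbouring genes were compared with scipy 1.17.1 and figures drawn with matplotlib 3.10.9. The genes, lists and tests were chosen with earlier results of these data known. A symbol pattern that matched acid phosphatase and storage protein genes was dropped from the list of RNA processing and assembly factors after the annotation was seen. The text names all 45 genes, and of each list up to 3 genes with the largest change that passed, beside neighbours in transcription units and genes of lists with 1 to 3 members. Over all probe sets, deviations of arrays with the same replicate number correlated at -0.008, 0.072 and 0.064, so the numbers were not taken as pairs. These values do not measure the photosynthesis genes by themselves. Among the 41 brighter ones, replicate 3 was the array most often lowest in both genotypes, while the array most often highest differed. A replicate effect shared by the genotypes in these genes was not tested. Alternatives were quantile normalization, median centring, a replicate block, centring on plastid probe sets, a filter at log2 5 on 3 arrays, array weights, eBayes with robust trend, and leaving out each array.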

Additional observations from a re-analysis of the deposited data

How the results depend on the processing

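Of the 12 genes that changed, psbK, psbI, atpA, ycf3 and petG kept direction and call under each alternative that gave a value, and the filter on dim probe sets left petG out. Over all 45 genes, 535 of the values under an alternative stayed on the same side of the threshold, 30 lost a call, 53 gained one and 8 turned. The count of higher genes, 5 in the comparison as reported, was 3 with median centring, 8 with the filter on dim probe sets (15 of 41 genes called, 36.6%, against 63.4% of the probe sets left), 8 with eBayes with trend and robust, and 3 to 9 when an array was left out. The count of lower genes was 5 to 7 and the median -0.02 to 0.07 when an array was left out. Centring each array on the median level of the plastid probe sets gave 31 higher genes and 5 lower and a median of 0.43. It called 72.8% of all probe sets higher and 8.82% lower. This setting follows the few plastid genes near the middle of the signal levels, while the median change of all 69 plastid genes as reported was 0.10. By construction it added the same amount to every change, here 0.42, and the median of all probe sets became 0.41. It turned atpI to 0.36, psaA to 0.30, ndhC to 0.39, psbJ to 0.34, psbL to 0.26, psbE to 0.25, ndhF to 0.40 and ndhG to 0.40, all past the threshold, and PSBW to 0.11 and PSBY to 0.21, which did not pass. A centring on the median deviation of plastid probe sets, chosen after seeing the data, gave 3 higher and 11 lower genes and a median of -0.09, with -0.11 over all probe sets. With array weights 6 were higher and 10 lower. The replicate block gave 5 higher and 8 lower, with 9 of the 12 calls kept, and no label ties a replicate number to a shared plate or day. Calls gained in limma with this block were psbN (adjusted p = 0.00617) and atpF (0.0478) as lower, and ndhI (0.0216) and psbC (0.0493) as higher. The difference of changes between psbH and petB ranged from -0.09 to 0.09 and that between ndhD and psaC from -0.23 to 0.10 when an array was left out, so neither has a direction. Adding the ndhB probe set changed neither count. Averaging probe sets per gene gave no separate value, since each gene has 1.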
